A study of Mus musculus with 49 samples.

Results

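Solute carriers are membrane proteins that move amino acids, sugars, ions, metals, vitamins and metabolites across the plasma membrane and the membranes of organelles. In the adult kidney many of them mark single segments of the nephron, where they reclaim filtered solutes, and other carriers serve growth and respiration in nearly every cell. The genes described here are the 183 rows, of 13093 in the table of expressed genes, whose symbol is Slc followed by a family number, the letter a and a member number. They fall into 41 families. Families whose symbols carry another letter, such as most nucleotide sugar carriers, are outside this naming rule.

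The values come from 49 individual cells of the metanephric mesenchyme, the tissue that gives rise to nephrons and kidney stroma, taken from mouse embryos at 11.5 days post coitum (Theiler stage 19). The embryos carried the transgene Tg(Crym-EGFP)82Gsat on a mixed background, both sexes were included, and no cell was treated. The reporter marks cells in which the Crym regulatory region is active, and the tissue around the ureteric bud was cut out under fluorescence with a margin of cells outside the reporter domain. The labels name no embryo, so the 49 cells are handled as a single sample, and no p-value was computed because cells are not replicates. Values are RPKM as the authors deposited them, a read count corrected for gene length and for how many reads mapped in that cell. A gene was counted as found in a cell at 1 RPKM or more.

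Cells were also grouped by the measured level of 2 transcription factor genes, Six2, which maintains nephron progenitors, and Foxd1, which marks stroma. At 1 RPKM, 18 cells had Six2 without Foxd1 (Six2-only), 15 had Foxd1 without Six2 (Foxd1-only), 9 had both and 7 had neither. The median Six2-only cell held 6 of 8 nephron progenitor markers and 0.5 of 6 stroma markers, and the median Foxd1-only cell held 1 and 4. Six2 and Foxd1 are themselves in these lists. Cells with neither gene were mixed, with 0 to 4 nephron progenitor markers and 0 to 5 stroma markers. The number of genes found per cell ran from 3610 to 6510, and in 47 cells the relative depth, with the median cell at 1, was 0.693 to 1.52. Cell 3, which has both genes, and cell 7, which is Foxd1-only, had 0.0346 and 0.0462 on this scale. The numbers of genes found in them, 4954 and 5232, lay within the range of the others. At so low a depth fewer reads suffice to reach 1 RPKM, so these numbers do not show equal detection. Cell 25, a Foxd1-only cell, held all 9 ureteric bud markers at a summed level of 769 RPKM together with 5 of 6 stroma markers, and cell 27, with neither gene, held all 7 endothelial markers at a summed level of 1030.5 RPKM. Outside these cells no cell had more than 2 ureteric bud markers or more than 1 endothelial marker.

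Most solute carrier genes were found in few cells. A median carrier was found in 8 of 49 cells, against 16 cells for the median gene of the table. Only 7 of the 183 carriers (3.83%) were found in 45 or more cells, where 9.9% of all genes were, and 74 (40.4%) were found in 5 or fewer, where 25.2% of all genes were. The remaining 102 (55.7%, against 64.9% of all genes) lay in between, and 24 carriers (13.1%, against 8.2% of all genes) were found in 1 cell only. Among the 149 carriers above 3 RPKM in 2 or more cells, 40 (26.8%) were found in 5 or fewer cells, against 15.2% of all genes under the same filter. All 183 passed the authors' filter of more than 3 RPKM in at least 1 cell, so a carrier that was low in every cell is not analysed here. The median cell held 46 carriers, with the lowest at 30 in cell 34 and the highest at 70 in cells 21 and 25. As a share of all genes found in the same cell, carriers made up 0.691 to 1.11%, with a median of 0.908%.

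**Figure D1:**
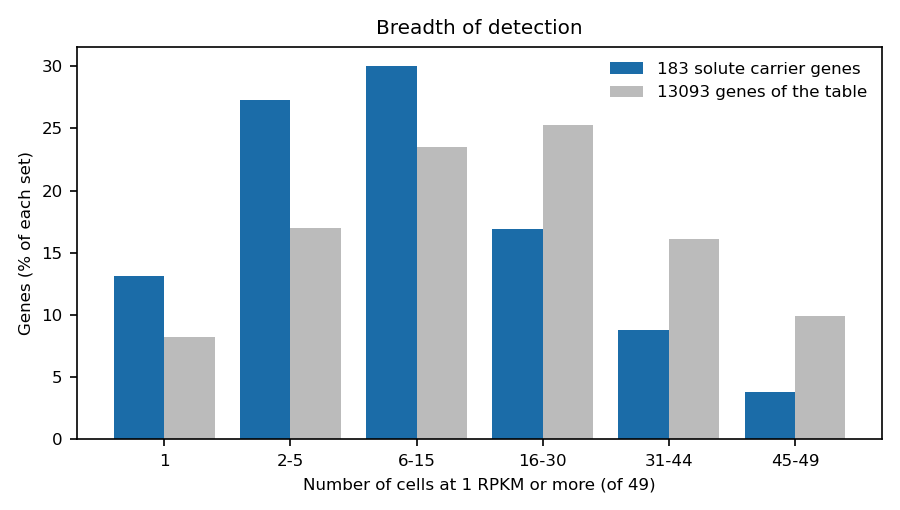
Share of genes (y axis, % of each set) by the number of cells, of 49, in which the gene reached 1 RPKM (x axis), for the 183 solute carrier genes (blue) and all 13093 genes of the table (grey). The carriers exceed all genes in the classes up to 15 cells and fall below them in the classes of 16 cells and more, with 3.83% against 9.9% at 45 to 49 cells.

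Mitochondrial carriers gave the highest levels. This family, Slc25, had 39 members, of which 4 were found in 45 or more cells, 21 in 6 to 44 and 14 in 5 or fewer, and the median cell held 12 of them. Slc25a4 and Slc25a5, the isoforms of the adenine nucleotide translocase that exchanges ATP for ADP across the inner membrane, were found in all 49 cells. Slc25a4 (gene ID 11739; chromosome 8, 47292698 to 47296363 in mm9) ran from 100.2 RPKM in the shallow cell 3 through a median of 693 to 1157 RPKM in cell 15. Slc25a5 (gene ID 11740; chromosome X, 34335647 to 34338801 in mm9) had nearly the same median, 691 RPKM, but a far wider range, from 3.27 RPKM in cell 26 to 2307 RPKM in cell 50. Together these 2 genes made up a median of 41.1% of the summed carrier RPKM of a cell. That share was 29.3 to 68.5% in Six2-only cells, with a median of 51.9%, and 19.9 to 54.6% in Foxd1-only cells, with a median of 36.0%, so the ranges overlapped.

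The lowest, median and highest levels of Slc25a5 were 3.27, 1249.9 and 2295 RPKM in Six2-only cells and 85.4, 612 and 1759 RPKM in Foxd1-only cells. Its median was higher by 1.03 on the log2(RPKM+1) scale in the former, the 1 carrier of the 7 broad ones that differed by 1 or more in that direction, where 8.18% of all genes found in 45 or more cells did. In the other direction 0 of 7 did, beside 4.78% of all such genes. The difference stands at the limit of 1: it was 0.97 without cells 3 and 7, 0.95 with cells shifted as described below for Slc3a2, and 0.55 with means in place of medians. The lowest, median and highest levels of Slc25a4 were 553, 819 and 993 RPKM and 159.7, 605 and 865 RPKM in the same classes. Slc25a5 was the higher isoform in 33 of 49 cells, 13 of 18 among Six2-only cells and 10 of 15 among Foxd1-only cells. Cell 26 stood apart, with Slc25a4 at 866 RPKM beside Slc25a5 at 3.27 RPKM, as did cell 31, at 860.0 and 43.0 RPKM. Both values are uncertain to the extent that reads of processed gene copies were counted with them.

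**Figure D2:**
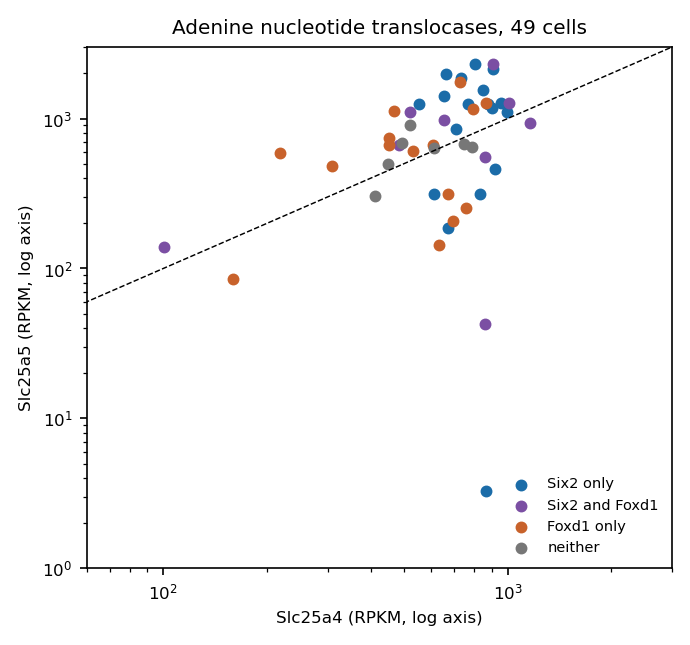
Slc25a5 (y axis, RPKM, log axis) against Slc25a4 (x axis, RPKM, log axis) in 49 cells, coloured by Six2 and Foxd1 status; the dashed line marks equal values. In 33 cells the point lies above the line, and cells 26 and 31 lie far below it at 3.27 and 43.0 RPKM of Slc25a5.

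Other carriers of this family were found in most cells. Slc25a3, the mitochondrial phosphate carrier, was found in all 49 cells (median level 107 RPKM), and Slc25a36, a pyrimidine nucleotide carrier, in 48 (median level 98.3 RPKM). Slc25a17, a carrier of cofactors in the peroxisome, was found in 43 cells (median 90.6 RPKM), Slc25a39, linked to mitochondrial glutathione import, in 41 (median 51.3 RPKM), and Slc25a11, the oxoglutarate carrier, in 35 (median 82.9 RPKM). Slc25a11 varied widely: it was listed at 0 in 8 cells and reached 333 RPKM in cell 32. Of the aspartate-glutamate carriers, Slc25a13 was found in 29 cells and Slc25a12 in 20. Slc25a46, which acts in mitochondrial shape, was found in 31. The citrate carrier Slc25a1 and the dicarboxylate carrier Slc25a10 were found in 22 and 20 cells and together in 6, where independent detection would give 8.98.

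**Figure D3:**
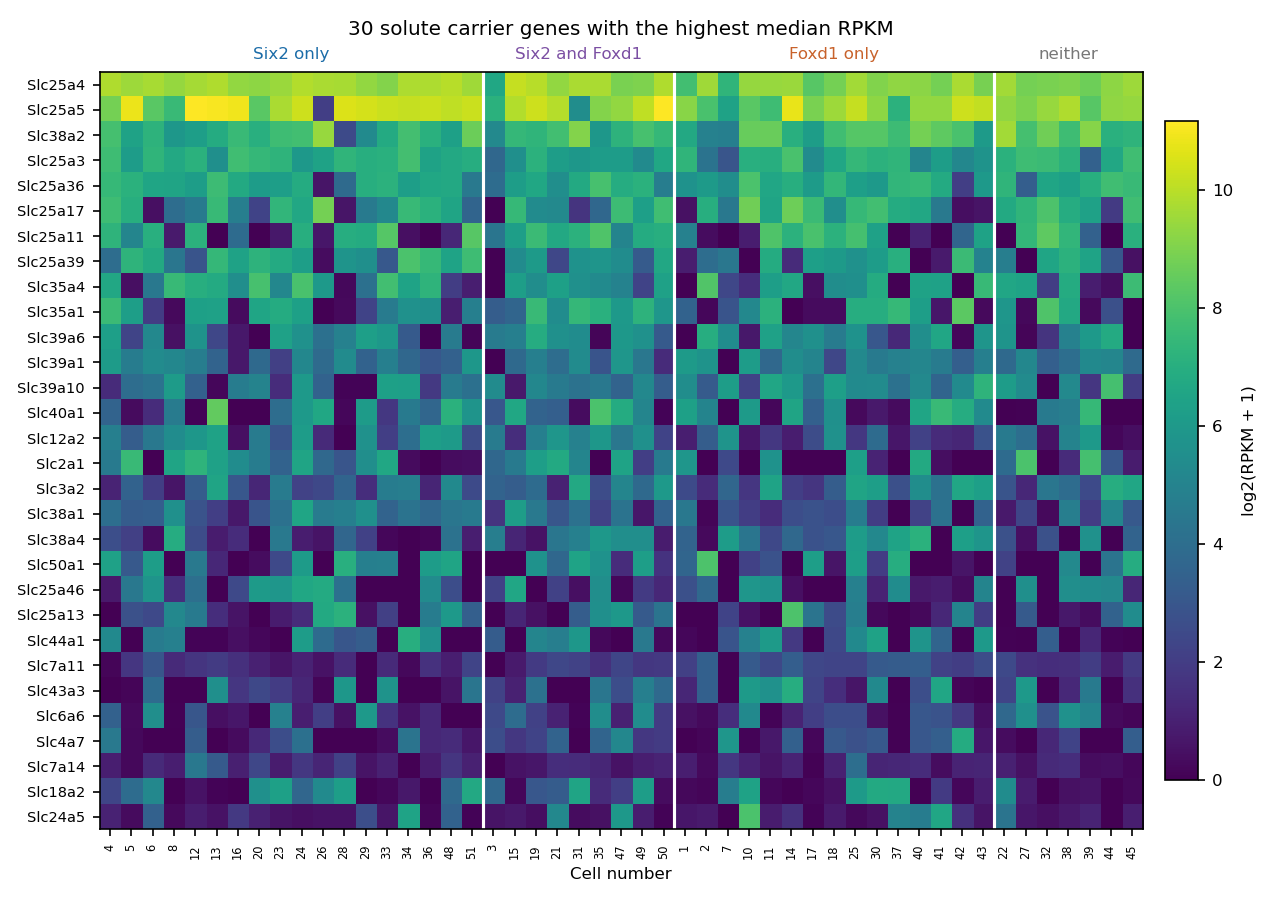
Level, as log2(RPKM+1) by colour, of the 30 carriers with the highest median (rows, highest first) in 49 cells (columns, by cell number within each class of Six2 and Foxd1 status). Slc25a4 and Slc25a5 are the brightest rows, with 1 dark cell, cell 26, in the row of Slc25a5 (3.27 RPKM), and Slc38a2, Slc25a3 and Slc25a36 follow.

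Amino acid carriers numbered 35, with 2 found in 45 or more cells, 18 in 6 to 44 and 15 in 5 or fewer. Slc38a2, a sodium-coupled carrier of neutral amino acids, was found in all 49 cells, from 4.67 RPKM through a median of 174 to 781 RPKM in cell 22. Its relative Slc38a1 was found in 42 cells (median level 8.53 RPKM), and Slc38a2 was the higher of the pair in 47 cells. Slc3a2, the heavy chain that brings several light chains to the cell surface, was found in 48 cells (median level 10.3 RPKM). Its lowest, median and highest levels were 0.563, 6.01 and 91.9 RPKM in Six2-only cells and 1.60, 11.9 and 96.9 RPKM in Foxd1-only cells, so the classes overlapped, with a difference of medians of -0.90 (Six2-only minus Foxd1-only) on the log2(RPKM+1) scale. It was -1.01 with a pseudocount of 0.1, -1.06 with means in place of medians and -1.54 with cells shifted by their median level over the 557 genes found in every cell.

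The light chains that pair with Slc3a2 differed in breadth. Slc7a11, which takes up cystine, was found in 39 cells but stayed low, at 9.60 RPKM or less. It was found in 12 of 18 Six2-only and 14 of 15 Foxd1-only cells, 26.7 points apart and so under the limit of 30 points used below. Slc7a6 was found in 19 cells, and Slc7a5, the light chain of the leucine transporter LAT1, in 5 cells at up to 13.7 RPKM. Of relatives that need no heavy chain, Slc7a1, a cationic amino acid carrier, was found in 14 cells, and Slc7a14 in 27 at a median of 1.06 RPKM. Among carriers of small neutral amino acids, Slc1a4 was found in 7 cells and Slc1a5 in 3, with no cell in common where independent detection would give 0.429. Slc6a6, the taurine carrier, was found in 30 cells and Slc6a8, the creatine carrier, in 7, with 4 in common where independent detection would give 4.29. Slc43a3, which belongs to this group by family but carries purine bases, was found in 31 cells and peaked at 123 RPKM.

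Among 15 sugar carriers, none was found in 45 or more cells. Slc2a1, the glucose transporter GLUT1 (gene ID 20525; chromosome 4, 118781350 to 118809934 in mm9), led with 32 cells. It peaked at 259 RPKM in cell 27, the cell with endothelial markers, followed by 234 RPKM in cell 39. It was listed at 0 in 12 cells. Other glucose transporters were found in fewer cells. Slc2a3 was found only in cell 42, at 18.6 RPKM, Slc2a4 in 8 cells and Slc2a8 in 8. Slc50a1, a sugar efflux carrier, was found in 31 cells and reached 264 RPKM in cell 2. The monocarboxylate carriers of lactate and pyruvate, Slc16a1 and Slc16a3, were found in 18 and 10 cells and together in 3, where independent detection would give 3.67. Their chaperone gene Bsg was found in all 49 cells (median level 105 RPKM). Slc16a3 overlaps Csnk1d in the table. Of the 9 Slc16 carriers, none was found in more than 18 cells.

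Metal carriers numbered 25, and 3 zinc importers were found in the most cells. Slc39a1 was found in 46 cells, Slc39a10 in 44 and Slc39a6 in 38, with medians of 23.8, 23.1 and 29.2 RPKM, and every cell held at least 2 members of that family. The other zinc importers were found in fewer cells: 6 of the 12 were found in 5 or fewer, and the median importer in 7. Of the 6 zinc exporters 1 was found in 5 or fewer cells, and the median exporter was found in 16.5, led by Slc30a6 in 22, Slc30a9 in 20 and Slc30a7 in 19. Slc30a6 reached 313 RPKM in cell 45. Slc40a1, the iron exporter ferroportin, was found in 33 cells (median level 15.0 RPKM) and peaked in cell 13 at 361 RPKM. That Six2-only cell also held 1 of 3 macrophage markers, at the highest summed macrophage marker level of any cell (124 RPKM, against 87.4 RPKM in cell 27); its part in the value was not tested. Slc40a1 was found in 13 of 18 Six2-only and 10 of 15 Foxd1-only cells. The copper importer Slc31a1 was found in 23 cells; its gene overlaps Cdc26 in the table, and with no strand kept their reads cannot be told apart.

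Of 27 carriers of inorganic ions and acid equivalents, 15 were found in 6 to 44 cells and 12 in 5 or fewer. Slc12a2, which loads chloride into cells with sodium and potassium, was found in 40 cells, with lowest, median and highest levels of 0, 22.4 and 85.7 RPKM in Six2-only cells and 0.589, 2.56 and 54.1 RPKM in Foxd1-only cells. The classes overlapped, and the share of cells differed by 15.6 points. The difference of medians (Six2-only minus Foxd1-only) was 2.72 on the log2(RPKM+1) scale. The limit on levels was applied only to carriers found in 45 or more cells, so Slc12a2 was not counted there. Its chloride-exporting relatives were found less widely, Slc12a7 in 20 cells and Slc12a4 in 6. Slc4a7, a sodium bicarbonate carrier, was found in 27 cells. The phosphate carriers Slc20a1 and Slc20a2 were found in 23 and 13 cells and together in 8, where independent detection would give 6.10. Slc24a5, a pigment cell exchanger gene, was found in 17 cells and peaked at 255 RPKM, but it overlaps Myef2 in the table, and reads of the 2 genes cannot be told apart.

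Smaller groups held a few widely found members. The nucleotide sugar carriers Slc35a4 and Slc35a1, the latter for activated sialic acid in the Golgi, were found in 39 and 35 cells with medians of 48.5 and 41.9 RPKM; Slc35a4 overlaps Apbb3. The choline carrier gene Slc44a1 was found in 26 cells. Slc18a2, the vesicular monoamine transporter, was found in 24 cells and peaked at 109 RPKM in cell 30. It was found in 10 of 18 Six2-only, 6 of 15 Foxd1-only, 7 of 9 cells with both genes and 1 of 7 with neither. The nucleoside carriers Slc29a1 and Slc29a2 were each found in 7 cells and never in the same cell, where independent detection would give 1. Slc29a1 was highest in cell 27, at 217 RPKM. Of the folate and thiamine carriers, Slc46a1 was found in 16 cells, Slc19a1 in 11 and Slc19a2 in 3, all of them Six2-only, at 58.3 RPKM in cell 12, 67.2 in cell 23 and 72.5 in cell 13.

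Carriers tied to Six2 or Foxd1 status were sought by comparing the share of Six2-only cells with the share of Foxd1-only cells, and a carrier was listed when the shares differed by 30 percentage points or more. By this rule 5 carriers (2.73%) were found more often in Six2-only cells, where 3.73% of all genes were, and 6 (3.28%) more often in Foxd1-only cells, where 4.1% of all genes were. Among genes found in 6 to 44 cells, the only carriers that passed, the shares were 4.90% of 102 carriers against 5.74% of all such genes, and 5.88% against 6.32%. These counts are near the background, and the carriers as a group are not set apart from other genes by them. At 0.1 RPKM, 11 carriers (6.01%) were found more often in Foxd1-only cells, beside 4.35% of all genes. The 11 carriers past the limit at 1 RPKM, in either direction, are therefore described gene by gene, with no test. Just inside the limit stood Slc10a3, at 31.1 points, and just outside it Slc30a5 and Slc7a7, at 28.9 points each. Exact 95% binomial intervals on shares cover counting error only.

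The carriers found more often in Six2-only cells belong to families that move amino acids, glucose, iron and monocarboxylates. Slc7a6, a light chain that exchanges cationic and neutral amino acids (gene ID 330836; chromosome 8, 108692775 to 108722604 in mm9), was found in 12 of 18 Six2-only cells (66.7%, interval 41.0 to 86.7%) and 1 of 15 Foxd1-only cells (6.67%, interval 0.169 to 31.9%). Its lowest, median and highest levels were 0, 3.08 and 20.8 RPKM in Six2-only cells, 0, 0 and 45.4 RPKM in Foxd1-only cells, 0, 0.914 and 20.1 RPKM in cells with both genes and 0, 0.617 and 97.0 RPKM in cells with neither. The 1 Foxd1-only cell with Slc7a6 was cell 10, above every Six2-only cell. The highest value of all was in cell 44, which has neither gene but held 4 of 8 nephron progenitor markers and 0 of 6 stroma markers. Levels in Six2-only cells were low, and the difference of 60 points shrank to 26.7 at a threshold of 5 RPKM and 21.1 at 10 RPKM. All 19 cells with Slc7a6 also had its heavy chain Slc3a2, which was found in 48 cells in any case.

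Slc2a1 was found in 13 of 18 Six2-only cells (72.2%, interval 46.5 to 90.3%) and 6 of 15 Foxd1-only cells (40%, interval 16.3 to 67.7%), and in 8 of 9 cells with both genes and 5 of 7 with neither. Its lowest, median and highest levels were 0, 23.6 and 191 RPKM in Six2-only cells and 0, 0 and 109 RPKM in Foxd1-only cells, so the classes overlapped. The difference fell from 32.2 to 22.1 points when Six2 and Foxd1 were counted from 5 RPKM. Txnip, whose protein restrains glucose uptake through GLUT1 and which was in the list of other transport genes, ran the other way: it was found in 4 of 18 Six2-only cells (22.2%, interval 6.41 to 47.6%) and 11 of 15 Foxd1-only cells (73.3%, interval 44.9 to 92.2%). Its lowest, median and highest levels were 0, 0.213 and 334 RPKM in Six2-only cells and 0, 7.34 and 213 RPKM in Foxd1-only cells. Within the classes, Txnip was absent at 1 RPKM from 10 of the 13 Six2-only cells with Slc2a1 and from 4 of the 5 without it, and was found in 5 of the 6 Foxd1-only cells with Slc2a1 and in 6 of the 9 without it. It was also found in 4 of the 8 cells with Slc2a1 that had both Six2 and Foxd1, and in 4 of the 5 that had neither, so cells with both Slc2a1 and Txnip occurred in every class. The highest value of Txnip was nevertheless in a Six2-only cell, cell 13, the cell with the macrophage marker named above for Slc40a1. The difference of Txnip, 51.1 points, was 25.6 at 0.1 RPKM and 23.3 at 10 RPKM.

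Slc11a2, the importer that brings iron into the cytosol (also called DMT1), was found in 7 of 18 Six2-only cells (38.9%, interval 17.3 to 64.3%) and 1 of 15 Foxd1-only cells (6.67%, interval 0.169 to 31.9%). The values were low in most cells: 8 of its 12 cells had less than 5 RPKM, and cell 8 had the most, 75.2 RPKM. The 1 Foxd1-only cell with Slc11a2 was cell 25, the cell with ureteric bud markers, at 1.49 RPKM. The difference was 17.8 points at 0.1 RPKM, 16.7 at 5 RPKM and 38.9 without cells 25 and 27. Tfrc, the transferrin receptor gene, which acts upstream of Slc11a2 in iron uptake and was in the list of other transport genes, was found in 17 of 18 Six2-only cells (94.4%, interval 72.7 to 99.9%) and 7 of 15 Foxd1-only cells (46.7%, interval 21.3 to 73.4%). Its lowest, median and highest levels were 0, 27.1 and 119 RPKM in Six2-only cells and 0, 0.736 and 114 RPKM in Foxd1-only cells. The classes overlapped, and Tfrc was listed at 0 in 1 Six2-only cell. Its difference of 47.8 points was 27.8 at 0.1 RPKM and 26.7 at 10 RPKM. Tfrc and Txnip come from a list chosen with earlier results of these data known, so they are no separate support for Slc11a2 and Slc2a1.

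Slc43a1, a carrier of large neutral amino acids that needs no heavy chain, was found in 6 of 18 Six2-only cells, 0 of 15 Foxd1-only cells, 5 of 9 cells with both genes and 2 of 7 with neither. Its highest value was 107 RPKM, in cell 32, and in Foxd1-only cells it did not exceed 0.232 RPKM. Cell 32 has neither gene but held 3 of 8 nephron progenitor markers and 1 of 6 stroma markers. The summed nephron progenitor marker level there, 710 RPKM, was the highest of any cell. Slc16a6, a member of the monocarboxylate family, was found in 6 of 18 and 0 of 15 cells and peaked in cell 23 at 46.2 RPKM; it overlaps Arsg in the table. An absence in 15 cells leaves room for a share of up to 21.8% by the exact interval. At 5 RPKM both differences fell under 30 points, and at 0.1 RPKM that of Slc16a6 did.

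The carriers found more often in Foxd1-only cells include a glutamate transporter and genes of lipid and choline transport. Slc1a3, a sodium-coupled glutamate and aspartate transporter (gene ID 20512; chromosome 15, 8584124 to 8660807 in mm9), was found in 4 of 18 Six2-only cells (22.2%, interval 6.41 to 47.6%) and 11 of 15 Foxd1-only cells (73.3%, interval 44.9 to 92.2%). Its lowest, median and highest levels were 0, 0 and 3.10 RPKM in Six2-only cells, 0, 5.79 and 37.6 RPKM in Foxd1-only cells and 0, 6.79 and 20.4 RPKM in cells with both genes. The 8 highest Foxd1-only cells lay above every Six2-only cell, and 4 Foxd1-only cells fell below 1 RPKM. The highest value of all, 38.5 RPKM, was in cell 38, which has neither gene. Cell 22, also with neither, had 10.5 RPKM, and the other cells with neither gene fell below 1 RPKM. Slc25a24, a calcium-regulated carrier of ATP-magnesium and phosphate in mitochondria (gene ID 229731; chromosome 3, 108926067 to 108971327 in mm9), was found in the same numbers of cells, 4 of 18 and 11 of 15. Its levels were 0, 0 and 29.0 RPKM in Six2-only cells and 0, 9.95 and 266 RPKM in Foxd1-only cells, in the same order, and the classes overlapped. These 2 genes kept a difference of 30 points or more under all 6 alternatives that could change it, with ranges of 46.7 to 56.3 points for Slc1a3 and 34.4 to 51.1 points for Slc25a24.

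RefSeq start-site windows (GRCm38.p6, 250 bases before to 50 after the start) matched 135 of the 183 carriers and 8 of the 11 just described, and the windows of the 3 carriers with the largest differences are printed because these are the sequences nearest to the starts of these genes. The build differs from the mm9 coordinates of the table, and for Slc7a6, which has 2 windows, the first is shown. Capitals mark the GC box GGGCGG on either strand; the other motifs searched, the forkhead motif TGTTTAC, the MEF3 motif TCAGGTTTC known to bind Six2 relatives and the E-box CACGTG, had no match in these windows. The first window is chr8:106168604-106168903, plus strand, 75.7% G and C, the second chr3:109122899-109123198, plus strand, 72.3% G and C, and the third chr15:8710758-8711057, minus strand, 45.3% G and C.
Slc7a6: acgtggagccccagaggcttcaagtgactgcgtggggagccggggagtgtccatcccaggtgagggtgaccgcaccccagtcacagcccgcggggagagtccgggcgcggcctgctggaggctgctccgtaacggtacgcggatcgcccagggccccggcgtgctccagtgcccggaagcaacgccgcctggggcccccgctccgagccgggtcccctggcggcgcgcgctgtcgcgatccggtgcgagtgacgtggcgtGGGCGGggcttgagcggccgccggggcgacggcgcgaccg
Slc25a24: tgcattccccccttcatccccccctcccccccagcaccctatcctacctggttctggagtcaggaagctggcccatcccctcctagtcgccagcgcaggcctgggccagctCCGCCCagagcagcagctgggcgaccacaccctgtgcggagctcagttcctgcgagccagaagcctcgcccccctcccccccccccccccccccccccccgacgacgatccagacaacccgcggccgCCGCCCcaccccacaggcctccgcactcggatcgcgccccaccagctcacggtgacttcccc
Slc1a3: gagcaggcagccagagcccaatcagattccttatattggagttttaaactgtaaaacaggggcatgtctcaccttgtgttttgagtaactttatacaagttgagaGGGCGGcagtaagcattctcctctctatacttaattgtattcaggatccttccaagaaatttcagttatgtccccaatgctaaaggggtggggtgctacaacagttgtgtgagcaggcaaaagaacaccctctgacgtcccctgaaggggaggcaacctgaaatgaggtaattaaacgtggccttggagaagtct
The Slc7a6 window held 41 CG pairs, the Slc25a24 window 19 and the Slc1a3 window 3. Over all 32851 windows, the GC box was found in 35.7%, the E-box in 7.15%, the forkhead motif in 3.65% and the MEF3 motif in 0.429%. Over the 187 windows of carriers the shares were 68.4%, 15.0%, 1.07% and 0%. These windows had a median of 61% G and C, against 52.7% for all windows. The set of all windows was not limited to genes of the expressed gene table, so it is not a matched background. No forkhead or MEF3 match lay in the 14 windows of the 8 matched carriers (4 for those found more often in Six2-only cells and 10 for those found more often in Foxd1-only cells), which says only that these letters are not there. A match is a description of the sequence, not of a bound site.

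The other carriers of the Foxd1-only direction were less steady. Slc44a2, a choline carrier-like gene, was found in 4 of 18 and 10 of 15 cells and peaked in cell 31, which has both genes, at 144 RPKM. Slc27a1, a fatty acid transport protein, was found in 3 of 18 and 9 of 15 cells, and yet was highest in the Six2-only cell 8, at 154 RPKM. Slc38a4, a neutral amino acid carrier whose gene is imprinted, was found in 9 of 18 and 13 of 15 cells, with median levels of 1.31 and 19.6 RPKM. Its difference was 36.7 points at 1 RPKM, 46.7 at 5 RPKM and 4.44 at 0.1 RPKM, and 44 of 49 cells held at least 0.1 RPKM. Slc10a3 was found in 4 of 18 and 8 of 15 cells, overlaps Ubl4 in the table, and fell under the limit without cells 3 and 7. For Slc44a2 and Slc27a1 the difference fell under 30 points at 5 RPKM.

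**Figure D4:**
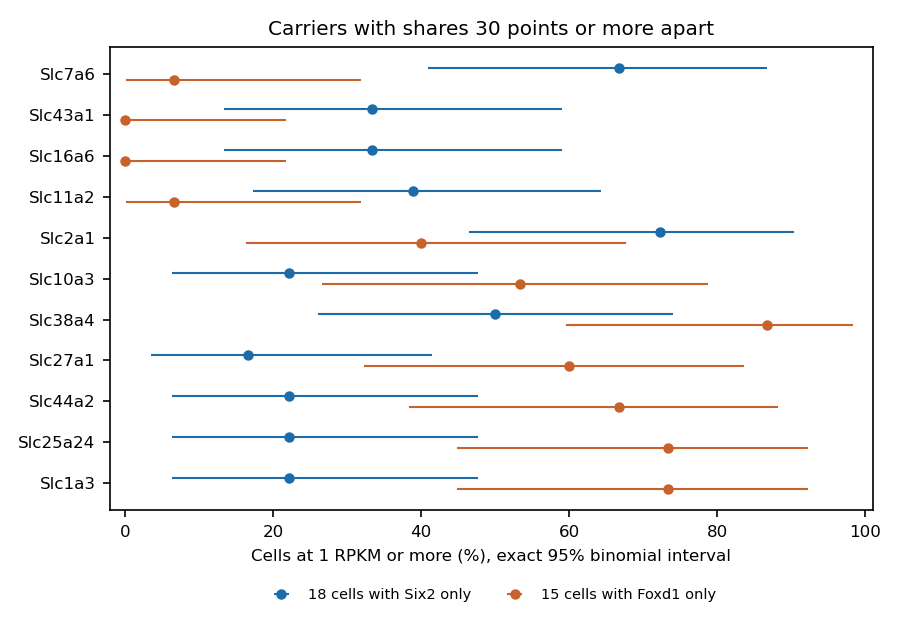
Share of cells at 1 RPKM or more (x axis, %, with exact 95% binomial intervals as bars) in 18 Six2-only cells (blue) and 15 Foxd1-only cells (orange) for the 11 carriers whose shares differed by 30 points or more (y axis). The intervals do not overlap for Slc7a6, at 66.7% against 6.67%, and overlap for the other 10 carriers; the 11 were chosen for these differences.

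**Figure D5:**
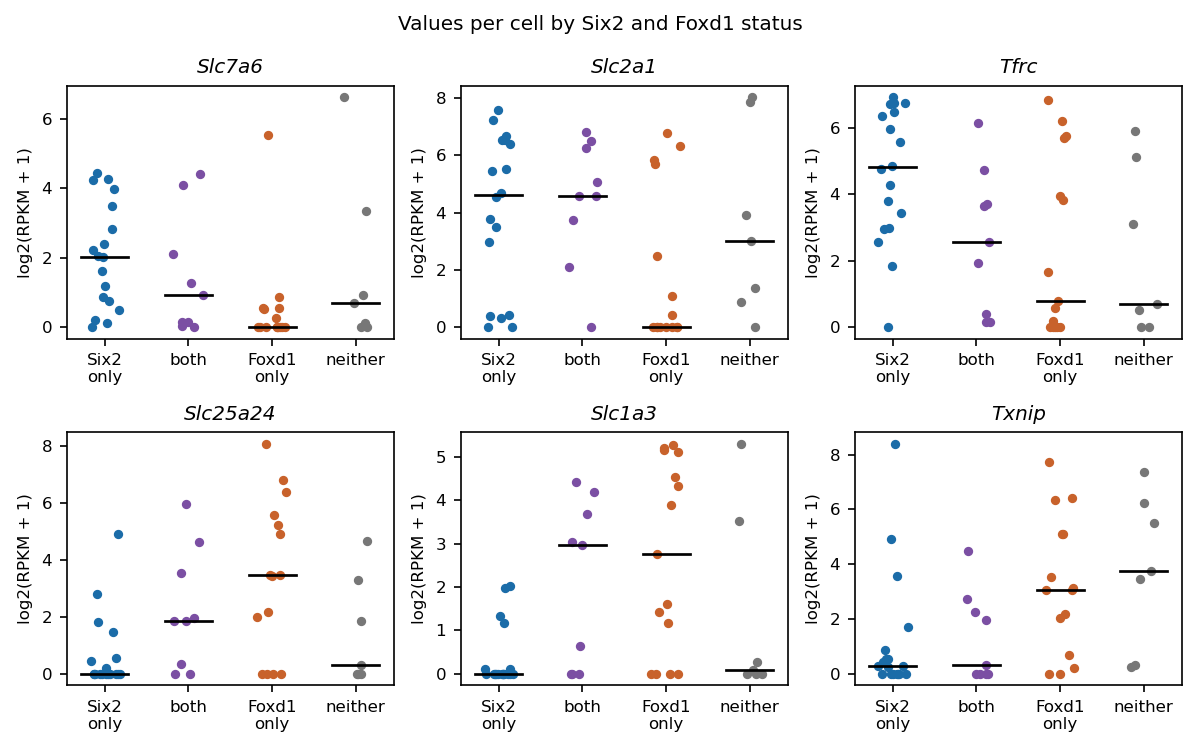
Level per cell, as log2(RPKM+1) (y axis), of Slc7a6, Slc2a1, Tfrc, Slc25a24, Slc1a3 and Txnip in Six2-only cells, cells with both genes, Foxd1-only cells and cells with neither (x axis); each point is a cell and each line a median. Points of the Six2-only and Foxd1-only classes overlap in all 6 panels, with median levels of 27.1 and 0.736 RPKM for Tfrc and of 0 and 5.79 RPKM for Slc1a3.

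Depth and markers of other cells were measured beside these shares. Median relative depth was 1.05 in Six2-only and 0.987 in Foxd1-only cells, and the median numbers of genes found were 4960.5 and 5232. The median numbers of carriers found were 42.5 in Six2-only cells, 47 in Foxd1-only cells, 52 in cells with both genes and 35 in cells with neither, which follow the order of the genes found. Summed ureteric bud markers reached 163 RPKM in Six2-only cells and 769 RPKM in Foxd1-only cells, the latter in cell 25, and 154 RPKM in the other Foxd1-only cells. Without cells 25 and 27 all 11 differences stayed at 30 points or more, and without cells 3 and 7 all but that of Slc10a3 did. Other carriers came past the limit in these settings. Without cells 3 and 7, 9 carriers (4.92%, against 4.16% of all genes) were found more often in Foxd1-only cells. Without cells 25 and 27, 8 carriers (4.37%, against 4.01% of all genes) were. The number found more often in Six2-only cells stayed at 5 in both settings. The part of the number of genes found in these differences was not tested.

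Carriers that serve later nephron segments were few. Of 42 proximal tubule carriers in the list, 8 were in the table, and the other 34, the phosphate carrier Slc34a1 and the organic anion carrier Slc22a6 among them, were not analysed here. Of the 8, 5 were found in 5 or fewer cells, where 40.4% of all carriers and 25.2% of all genes were. With so few genes this count is not read as a trait of proximal carriers. Slc5a2, the glucose transporter SGLT2, was found in cell 30 alone, at 3.85 RPKM, and overlaps BC017158 in the table. Slc16a9 was found only in cell 25, at 20.9 RPKM, and Slc23a1, a vitamin C carrier, only in cell 21, at 13.7 RPKM, and overlaps Paip2. Slc4a4, the basolateral bicarbonate carrier, was found in cell 42 (39.7 RPKM) and the shallow cell 7 (1.54 RPKM). Slc3a1, the heavy chain of the cystine transporter, was found in 4 cells at 8.59 RPKM or less, and overlaps Prepl; the light chain Slc7a9 was not analysed here. A gene found in 1 of 49 cells has an exact interval of 0.0517 to 10.9%.

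The other 3 proximal list members also have roles outside that segment. Slc7a7 was found in 10 cells, with the most, 175 RPKM, in cell 27, which also had 2 of 3 macrophage markers; it overlaps Oxa1l. Slc37a4, the glucose-6-phosphate carrier of the endoplasmic reticulum, was found in 8 cells, 5 of them Six2-only and 0 Foxd1-only. Slc26a6 was found in 6 cells and reached 186 RPKM in cell 44. In all, 25 of 49 cells had at least 1 proximal list member and 8 cells had a member found in 5 or fewer cells. From the list of 13 carriers of the loop, distal tubule and collecting duct, 4 were in the table. Slc5a3, a carrier of the osmolyte myo-inositol, was found in 19 cells (it overlaps Mrps6), the sodium-calcium exchanger Slc8a1 in 11, the magnesium carrier Slc41a3 in 7 and Slc26a7 in 2, which were cell 31 (38.2 RPKM) and cell 2 (29.6 RPKM). Slc12a1 and Slc12a3, the cotransporters that mark the loop and the distal tubule, were not analysed here.

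Some sparse carriers were high in the cells that had them. Those named here were chosen for their highest single values, so their levels do not describe sparse carriers in general. Slc25a29, a carrier of basic amino acids, was found in 4 cells and peaked at 192 RPKM in cell 1, Slc33a1, the acetyl-CoA carrier, in 4 at up to 144 RPKM in cell 50, and Slc25a20, the carnitine-acylcarnitine carrier, in 4 at up to 136 RPKM in cell 43. Slc25a15 reached 97.7 RPKM, Slc17a5 90.7, Slc25a2 89.7, Slc25a47 86.4 and Slc26a10 77.9 RPKM, and Slc25a2 overlaps Pcdha2. Slc24a3 stood at 157 RPKM in the shallow cell 7 and at 4.13 RPKM or less elsewhere. Slc4a3, which was found in 8 cells and so is not sparse, stood at 263 RPKM in the shallow cell 3, with 33.7 RPKM as its next value. Amplified RNA of 1 cell without molecular identifiers does not show how many molecules lie behind such values.

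The cells with markers of other cell types held the highest values of several carriers. In cell 27 these were Slc2a1, Slc7a7, Slc29a1, Slc16a13 at 189 RPKM (next value 58.8), Slc31a2 at 119 (99.5), Slc15a4 at 93.7 (83.1) and Slc22a23 at 49.9 RPKM (3.50). In cell 25 they were Slc41a3 at 82.1 RPKM (next value 24.8), Slc39a9 at 72.9 (60.6), Slc2a10 at 31.3 (25.8), Slc12a9 at 29.3 (2.59), Slc9a7 at 23.9 (0.249), Slc16a9 and Slc16a7. Each cell thus held 7 such highest values, where the median cell held 4 and the range was 0 to 8, so neither number stands apart from other cells. These genes were named after their values were seen.

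Of 31 other transport genes in a list chosen beside the carriers, 22 were in the table. By the 30-point rule 1 of the 22 was found more often in Six2-only cells, Tfrc, where 3.73% of all genes were, and 2 more often in Foxd1-only cells, where 4.1% of all genes were. These 2 were Txnip and the cholesterol exporter gene Abca1, the last in 2 of 18 and 7 of 15 cells. The difference of Abca1 was 28.9 points at 0.1 RPKM and 2.22 at 5 RPKM. In all, 4 of the list were found in 45 or more cells: the outer mitochondrial channel genes Vdac1, Vdac2 and Vdac3, with medians of 155, 198 and 268 RPKM, and Bsg. The mitochondrial pyruvate carrier genes, listed as Brp44l and Brp44, were found in 40 and 25 cells with medians of 41.6 and 1.55 RPKM. The sodium pump beta subunit genes Atp1b3 and Atp1b1 were found in 34 and 4 cells. Abcg2, a drug and urate exporter, was found in 32 cells (median level 15.2 RPKM), including all 9 cells with both Six2 and Foxd1. The water channel genes Aqp1 and Aqp11 were found in 1 and 2 cells, and 7 genes of the list were found in 5 or fewer.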

How the data were processed

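The authors deposited RPKM values, per the file headers. The submitters' processing notes name TopHat 1.4.1, DESeq and mm9 without saying how each was used. Not given in the sources used here are counter and annotation. The table keeps genes above 3 RPKM in at least 1 cell, which was checked against them, and the deposited number of such cells per gene matched in every row. Columns were matched to cells by number, and 0 columns of values were unused. Total reads are unknown; the relative depth of each cell was read from the spacing of low values (genes below 8 RPKM, densest window of 2e-05 in the log ratio to cell 1). This estimate and the differences were tested on simulated data. Depth was recovered there when genes that dropped out held stray single reads, and was overestimated in shallow cells when they held none, so the depth of cells 3 and 7 rests on that condition.

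Cells at 1 RPKM or more were counted, with medians and ranges, in Python 3.11.15, pandas 2.3.3 and scipy 1.17.1. Intervals are exact (Clopper-Pearson, 95%), and log2 values use a pseudocount of 1, which understates the change of low genes. Independent detection is the product of both counts divided by 49. No doublet filter was applied; capture chambers were inspected under a microscope, per the labels' protocols. The chemistry keeps no strand and no molecular identifiers. Whether gene starts count from 0 or 1 is not stated. Members, lists and limits were chosen with earlier results of these data known. Genes named are the 30 carriers with the highest median, those past a limit, segment carriers, listed pairs, up to 10 sparse carriers with the highest value, the 10 intermediate ones with the largest spread and the other transport list; relatives of these and carriers highest in cells 3, 25 and 27 were named after their values were seen. Some genes that this rule names are not reported here.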

Additional observations from a re-analysis of the deposited data

How the results depend on the processing

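Of the 11 carriers past the 30-point limit, all kept their direction under the 6 alternatives that could change the difference, 10 stayed past it with Six2 and Foxd1 counted from 5 RPKM, 8 at 0.1 RPKM, 5 at 5 RPKM and 4 at 10 RPKM. With Six2 and Foxd1 counted from 5 RPKM, 8 carriers (4.37%, against 4.25% of all genes) were found more often in Foxd1-only cells. At 0.1 RPKM, 17 carriers were found in 45 or more cells and 48 in 5 or fewer, the median cell held 64, 42 cells had a proximal carrier, and 11 carriers (6.01%, against 4.35% of all genes) were found more often in Foxd1-only cells. At 5 RPKM the median cell held 33, and 95 carriers, 10 of them segment carriers, were found in 5 or fewer cells. At that threshold 3 carriers (1.64%, against 3.16% of all genes) were found more often in Six2-only cells. At 10 RPKM, 114 carriers were found in 5 or fewer cells, the median cell held 27, 10 segment carriers were found in 5 or fewer cells, 15 cells had a proximal carrier, and 3 carriers (1.64%, against 2.83% of all genes) were found more often in Six2-only cells. Breadth was not counted over all genes at 0.1, 5 or 10 RPKM, so these breadth counts have no background beside them. With a limit of 40 points, 5 of the 11 passed. Of these, 1 (0.546%, against 1.21% of all genes) was in the Six2-only and 4 (2.19%, against 1.60%) in the Foxd1-only direction. Among the 149 carriers above 3 RPKM in 2 or more cells, 40 (26.8%, against 15.2% of all genes) were found in 5 or fewer. For the levels of the 7 broad carriers, a pseudocount of 0.1 gave 1 carrier, Slc3a2, higher in Foxd1-only cells; means and shifted cells each gave 0 higher in Six2-only and 1 higher in Foxd1-only cells; and leaving out cells 3 and 7 gave 0 higher in Six2-only cells. The cause of these changes was not tested. No paired analysis was possible because the cells form a single group. Shares of 18 and 15 cells have wide intervals, a value listed at 0 may be a missed transcript, and the number of embryos behind the cells is unknown.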
